A study of Mus musculus with 6 samples.

Results

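The genes described here are 10 transcription factors and cofactors that set and hold the identity of B-lineage cells: Ebf1, Pax5, Ikzf1, Ikzf3, Bach2, Bcl6, Irf4, Irf8, Pou2af1 and Spib. They were taken as a list of named genes from 19938 genes measured, and all 10 were matched, each by the 1 probe set that names it alone. The arrays measured total RNA of mouse pre-B cells that BCR-ABL1 had transformed, a fusion kinase known from human acute lymphoblastic leukaemia with the Philadelphia chromosome. All cells carried Sox4fl/fl, that is, floxed alleles of the transcription factor gene Sox4, on a mixed 129SvEv x C57BL/6J background, with an age of 5 weeks in the labels. In 3 samples the transduced construct was ERT2, a ligand-binding domain of the oestrogen receptor without recombinase, and in 3 samples it was Cre-ERT2, a recombinase that 4OHT (4-hydroxytamoxifen) switches on. RNA was taken 24 h after 4OHT. BCR-ABL1 and the floxed alleles are thus shared by both groups, and no sample joins Cre-ERT2 to unfloxed Sox4, so Sox4 loss and recombinase activity cannot be told apart. Nothing in the labels states whether the 3 samples of a group are separate cultures, and the p-values thus reflect the spread among these arrays, which may be technical.

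Ebf1 and Pax5 are known as the pair that commits a lymphoid progenitor to the B lineage: Ebf1 opens B-cell genes and switches on Pax5, and Pax5 keeps the programme on and silences genes of other lineages. Ikaros (Ikzf1) and Aiolos (Ikzf3), related zinc-finger proteins, end the growth phase of large pre-B cells, and in human BCR-ABL1 leukaemia deletions of IKZF1, PAX5 and EBF1 are common. Bach2 and Bcl6 are repressors that hold back plasma-cell and damage-response genes, Irf4 and Irf8 act with Ets factors such as Spi-B at immunoglobulin light-chain genes, and OCA-B (Pou2af1) is the B-cell coactivator of octamer-binding proteins.

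The 6 arrays had median intensities of 273 to 279, and precision is limited by how few arrays there are. Sox4 itself, the check of the labels, read 1459, 1372 and 1237 in ERT2 replicates 1 to 3 and 599, 541 and 499 in Cre-ERT2 replicates 1 to 3. The Cre-ERT2 mean was 40.3% of the ERT2 mean, and Sox4 fell by 1.31 on the log2 scale (SE 0.091, limma adjusted p = 0.000434).

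None of the 10 factors passed limma's test at an adjusted p under 0.05 (0 higher and 0 lower), where 8.11% of all genes passed (4.38% higher and 3.73% lower in Cre-ERT2). At an unadjusted p under 0.05 the count was 4 of 10, namely Pax5 and Ikzf1 with lower values and Irf4 and Irf8 with higher values in Cre-ERT2, against 20.1% of all genes. Groups did not overlap in 6 of the 10, against 28.3% of all genes: Pax5, Ikzf1, Pou2af1 and Spib were lower in every Cre-ERT2 array than in any ERT2 array, and Irf4 and Irf8 were higher in every Cre-ERT2 array. With 3 arrays a group, the smallest p of a two-sided exact permutation test is 0.1, so non-overlap of a single gene has no test of its own here. Differences were below 0 in 8 members and above 0 in 2, with a median of -0.06 on the log2 scale, beside 0.02 over all genes. The median absolute difference was 0.11 for the members and 0.07 over all genes. Apart from Bcl6, the members had ERT2 means of 2570 (Irf4) or more, far above the array medians of 273 to 279. The values over all genes were not matched to the members for brightness.

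**Figure D1:**
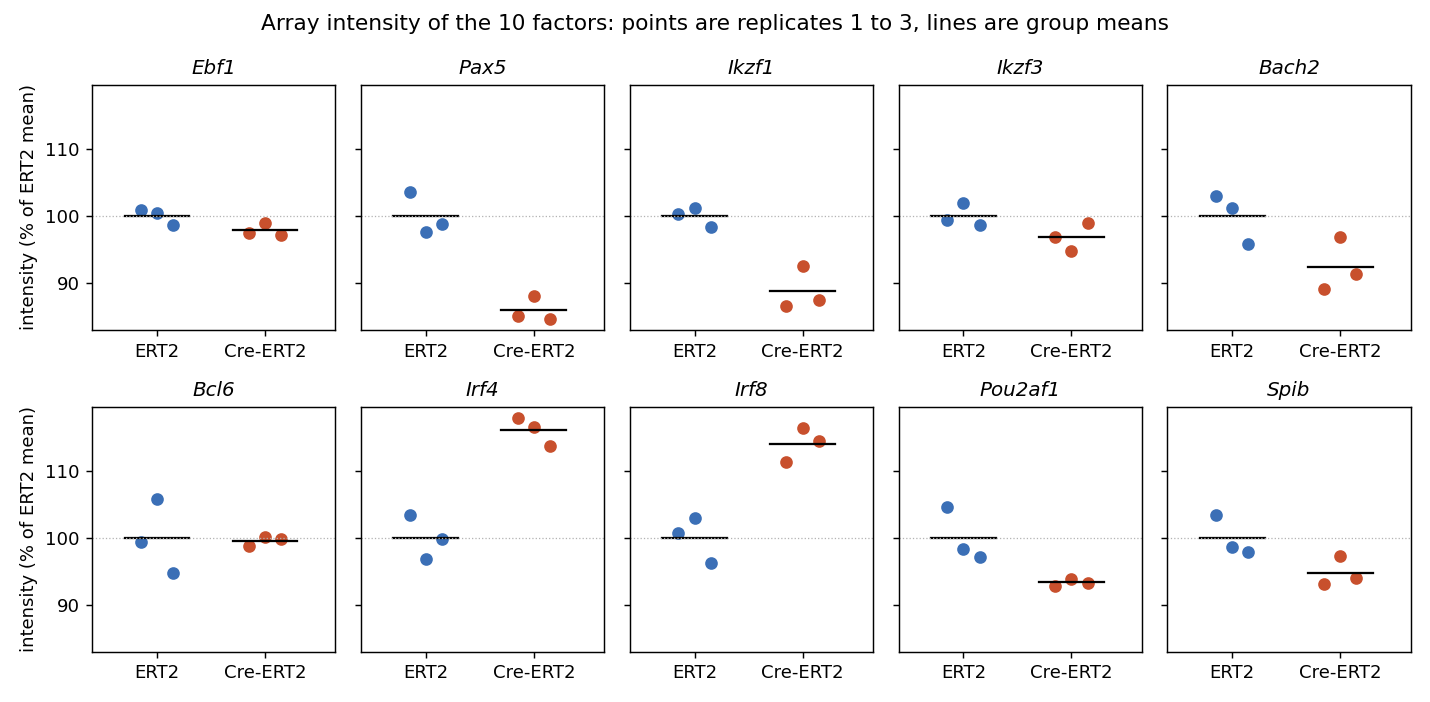
Intensity of each factor on the 6 arrays, as a percentage of that factor's mean over the 3 ERT2 arrays; points are replicates 1 to 3 from left to right and black lines are group means. Irf4 and Irf8 sit above the ERT2 arrays in all 3 Cre-ERT2 arrays, Pax5 and Ikzf1 sit below them, and Ebf1, Ikzf3, Bach2 and Bcl6 overlap.

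The promoters of 3 of these genes are shown because Sox factors are known to bind a short core written ACAAAG, and because Pax5 and Irf4 had the largest differences in either direction. Ikzf1 is added as the 1 of the 4 members with an unadjusted p under 0.05 whose windows hold that core. Bcl6, the other member with the core, had a log2 difference of -0.01 and is not shown. A link between the core and a change was not tested. Each line gives the 250 bases before a transcription start, 5′ to 3′ on the gene's strand, from RefSeq with build GRCm38.p6, and capitals mark the Sox core on either strand.
Pax5, chr4:44710695-44710944, minus strand: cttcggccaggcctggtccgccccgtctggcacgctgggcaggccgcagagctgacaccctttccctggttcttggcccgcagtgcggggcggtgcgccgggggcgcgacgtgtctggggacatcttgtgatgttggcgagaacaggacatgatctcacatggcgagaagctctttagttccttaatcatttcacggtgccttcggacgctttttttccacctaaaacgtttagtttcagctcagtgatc
Irf4, chr13:30748983-30749232, plus strand: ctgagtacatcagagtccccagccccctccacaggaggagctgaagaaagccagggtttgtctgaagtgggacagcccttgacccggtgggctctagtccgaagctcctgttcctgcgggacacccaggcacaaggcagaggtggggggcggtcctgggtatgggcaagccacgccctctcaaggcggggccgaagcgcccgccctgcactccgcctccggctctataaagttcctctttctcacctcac
Ikzf1 upstream start, chr11:11685675-11685924, plus strand: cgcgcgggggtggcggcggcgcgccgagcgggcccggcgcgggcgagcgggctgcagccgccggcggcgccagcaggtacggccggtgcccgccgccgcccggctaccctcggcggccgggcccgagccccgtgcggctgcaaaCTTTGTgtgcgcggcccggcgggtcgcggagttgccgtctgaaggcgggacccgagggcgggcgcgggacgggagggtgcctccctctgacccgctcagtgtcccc
Ikzf1 downstream start, chr11:11689927-11690176, plus strand: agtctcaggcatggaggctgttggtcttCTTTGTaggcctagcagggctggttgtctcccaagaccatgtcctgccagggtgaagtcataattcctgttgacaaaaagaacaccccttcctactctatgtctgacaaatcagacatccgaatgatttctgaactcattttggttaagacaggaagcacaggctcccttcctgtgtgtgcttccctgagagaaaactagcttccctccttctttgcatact

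The table of promoter sequences held 13 windows for 9 of the 10 members, and Ikzf3 had no entry. The Sox core ACAAAG was found on either strand in windows of 2 members, Ikzf1 (opposite strand, positions -106 to -101 before the upstream start and -222 to -217 before the downstream start) and Bcl6 (-212 to -207 before 1 of its 2 starts). Over the 32851 windows counted, which do not cover every chromosome, 16.5% held it, and the variant ACAATG, found in 0 members, was in 10.7%. These shares are per window, whereas members are counted as genes, some with 2 windows, so the counts and shares are not on the same footing. The Ebf palindrome CCCNNGGG stood before Ikzf1 and Spib (11.8% of the windows counted), with overlapping matches in Spib. The Ets core GAGGAA, sought on both strands, stood before Bcl6, Ebf1 and Irf4 (23.3% of the windows counted). The Ikaros core TGGGAA stood before Ebf1 and Irf8 (21.6%) and the E-protein box CAGGTG before Irf8 (17.2%). The octamer ATGCAAAT (1.60%) was found in 0 members. The windows of Pax5, Bach2 and Pou2af1 held none of the 7 motifs. These matches describe letters in a window and do not show binding.

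Ebf1, the pioneer of the B-cell programme, read 10613, 10572 and 10383 in ERT2 replicates 1 to 3 and 10255, 10413 and 10223 in Cre-ERT2 replicates 1 to 3. The groups overlapped, and the Cre-ERT2 mean was 97.9% of the ERT2 mean. Its log2 difference was -0.03 (SE 0.043, 95% interval -0.13 to 0.07, limma adjusted p = 0.817).

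Pax5, the guardian of B-cell commitment, read 6495, 6113 and 6190 in the ERT2 arrays and 5335, 5517 and 5306 in the Cre-ERT2 arrays. All 3 Cre-ERT2 arrays were lower than the lowest ERT2 array, with a mean of 5386 ± 114 (SD, n = 3) against 6266 ± 202 (SD, n = 3). The log2 difference was -0.22 (SE 0.049, 95% interval -0.34 to -0.10), and the limma adjusted p = 0.0552 fell short of the threshold. That is the largest absolute difference among the 10 members.

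The 3 genes whose log2 values over the 6 arrays were most like those of Pax5 were Hdac7 (Pearson r = 0.996), Gstt2 (r = 0.995) and Elf4 (r = 0.993). All 6 arrays share the group difference, so these values describe the pattern and are not a test. Elf4, a factor of the Ets family, fell by 0.40 (SE 0.052, limma adjusted p = 0.00612) and Gstt2, a glutathione transferase, fell by 0.60 (SE 0.078, 0.00618). Hdac7, a histone deacetylase, had a difference of -0.19 (SE 0.046, 0.0718).

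Ikzf1, which encodes Ikaros, read 4563, 4603 and 4475 in the ERT2 arrays and 3935, 4212 and 3977 in the Cre-ERT2 arrays. The Cre-ERT2 arrays were again all lower, at 88.9% of the ERT2 mean, with a log2 difference of -0.17 (SE 0.049, 95% interval -0.29 to -0.05, limma adjusted p = 0.123). A single probe set cannot separate the full-length from the short dominant-negative forms for which Ikaros is known. Ikzf3, which encodes Aiolos, read 4287, 4399 and 4253 in the ERT2 arrays and 4181, 4086 and 4267 in the Cre-ERT2 arrays. Its groups overlapped, and the difference was -0.05 (SE 0.046, 95% interval -0.16 to 0.06, 0.729).

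Bach2, the repressor that delays plasma-cell formation, read 2930, 2881 and 2727 in the ERT2 arrays and 2536, 2757 and 2601 in the Cre-ERT2 arrays. The highest Cre-ERT2 array exceeded the lowest ERT2 array, and the log2 difference was -0.11 (SE 0.056, 95% interval -0.25 to 0.02, limma adjusted p = 0.392). Bcl6, which protects pre-B cells from damage signals and is known to be induced when BCR-ABL1 is inhibited, read 289, 308 and 276 in the ERT2 arrays and 287, 291 and 290.1 in the Cre-ERT2 arrays. The Cre-ERT2 values lay inside the ERT2 range, with a difference of -0.01 (SE 0.055, 95% interval -0.14 to 0.13, limma adjusted p = 0.984). Bcl6 intensity was close to the array medians of 273 to 279.

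Irf4, which drives exit from the cell cycle and light-chain recombination in pre-B cells, read 2658, 2489 and 2564 in the ERT2 arrays and 3030.4, 2997 and 2922 in the Cre-ERT2 arrays. Every Cre-ERT2 array was higher, at 116% of the ERT2 mean, with a log2 difference of 0.22 (SE 0.049, 95% interval 0.10 to 0.33, limma adjusted p = 0.0571). Irf8, the related factor that B cells share with myeloid cells, read 3538, 3615 and 3379 in the ERT2 arrays and 3908, 4087 and 4015 in the Cre-ERT2 arrays. It too was higher in every Cre-ERT2 array, at 114% of the ERT2 mean, with a difference of 0.19 (SE 0.050, 95% interval 0.07 to 0.31, 0.0938).

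Spib, an Ets factor that partners with the interferon regulatory factors, read 3842, 3666 and 3638 in the ERT2 arrays and 3461, 3612 and 3491 in the Cre-ERT2 arrays. The groups did not overlap but lay close, with a log2 difference of -0.08 (SE 0.048, 95% interval -0.19 to 0.04, limma adjusted p = 0.529). Pou2af1, the octamer coactivator, read 7006, 6589 and 6509 in the ERT2 arrays and 6217, 6294 and 6253 in the Cre-ERT2 arrays. Its lowest ERT2 array stood above all Cre-ERT2 arrays, with a difference of -0.10 (SE 0.049, 95% interval -0.22 to 0.02, 0.399).

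Every interval lay between -0.34 and 0.33 on the log2 scale, and the largest change inside any member's 95% interval was 1.26-fold; each interval holds for its gene alone. With the spread seen here, a member needed a difference of 0.20 to 0.26, or 1.15- to 1.20-fold, to be called, because the largest unadjusted p among called probe sets was 0.00302. Replicates of a group varied by an SD of 0.610% to 5.55% of the mean.

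**Figure D2:**
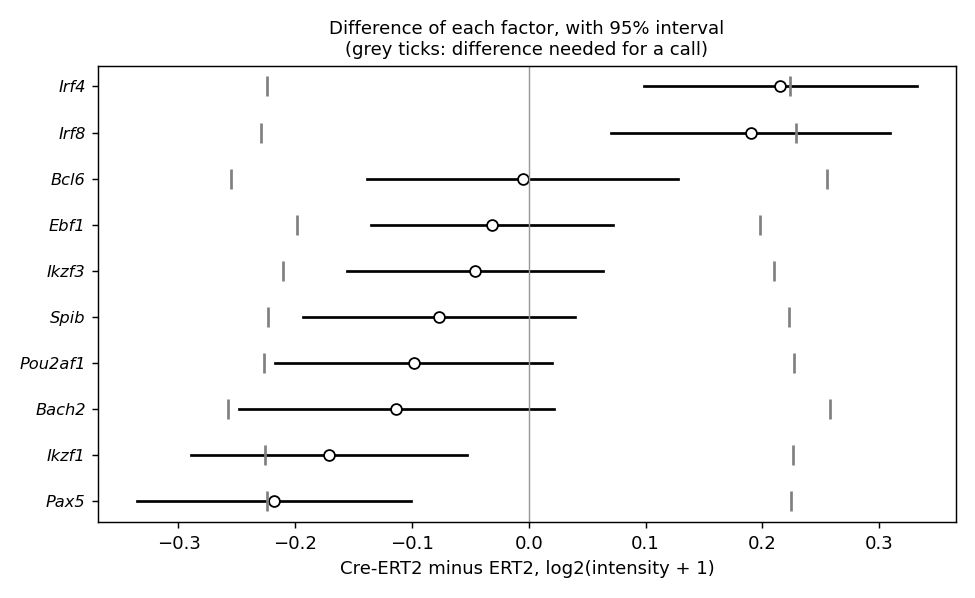
Log2 difference of each factor, Cre-ERT2 minus ERT2 (circles), with its 95% interval from limma (lines) and the difference each would have needed to be called (grey ticks). Pax5 at -0.22 and Irf4 at 0.22 lie just inside their ticks, and the intervals of Pax5, Ikzf1, Irf4 and Irf8 do not cross 0.

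The calls of these 4 members depended on the processing. With an intensity trend in the variance model, or with estimated array weights, 2 members were higher (Irf4 and Irf8) and 2 lower (Pax5 and Ikzf1), with adjusted p from 0.00841 for Pax5 to 0.0357 for Ikzf1 under the trend. Over probe sets brighter than the median Pax5 (0.0205), Irf4 (0.0213) and Irf8 (0.0377) passed, and over probe sets with 1 gene alone the same 3 passed (0.0215, 0.0227 and 0.0432). Genes called over the whole table also rose under these settings, from 1617 as reported to between 1852 and 2749. With any 1 array left out none of the 10 passed, and the adjusted p of Pax5 lay between 0.0698 and 0.221. Under 17 alternatives the difference of Pax5 stayed between -0.26 and -0.19 and that of Irf4 between 0.17 and 0.24.

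**Figure D3:**
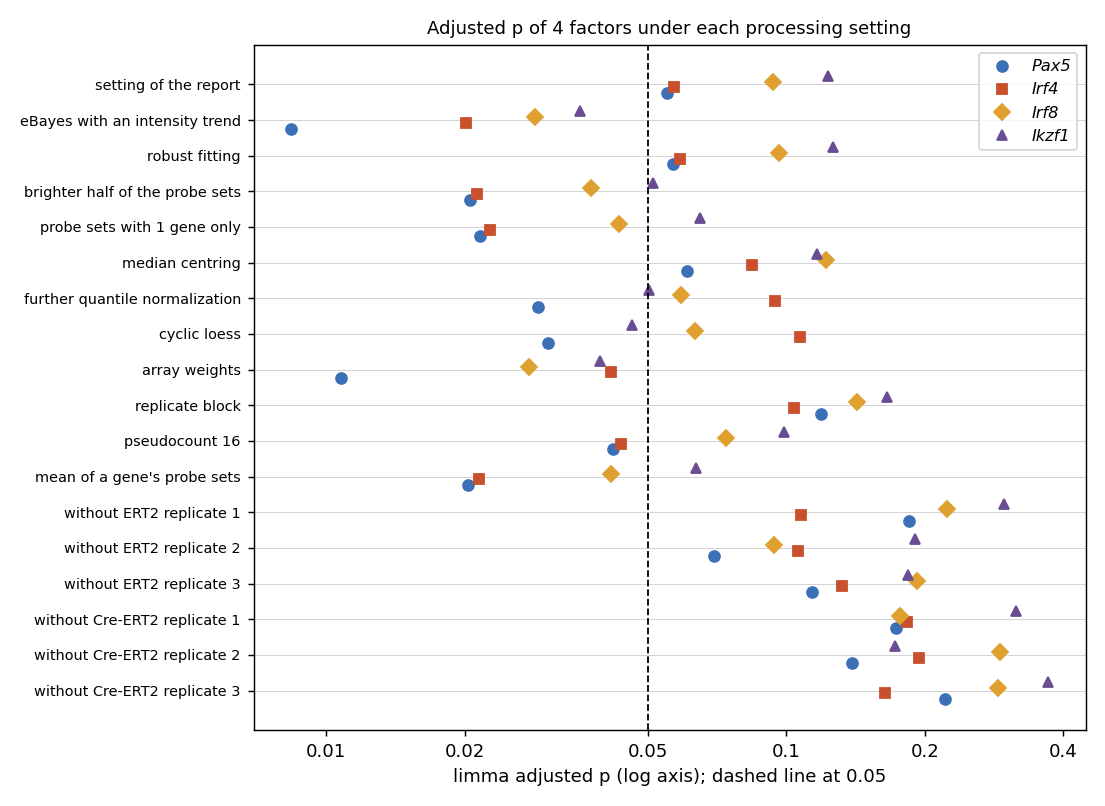
Limma adjusted p of Pax5, Irf4, Irf8 and Ikzf1 (x axis, log scale) under the setting used here and 17 alternatives (y axis); the dashed line marks 0.05. Points lie on both sides of the line for all 4 genes, and none passes it when an array is left out.

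Among other transcription factors of B-cell development, Gfi1, Foxo1, Lef1 and Erg fell and Mef2c, Pou2f2, Runx1 and Ikzf4 rose. Of 25 measured partners 4 rose and 4 fell, a share of 32.0% (background 8.11% of genes), with a median difference of -0.03 beside 0.02 over all genes. This list and those below were chosen with earlier results of these data known. Their shares of called genes are thus a description and do not show an excess over the background. Gfi1, a repressor that restrains PU.1 in progenitors, read 432, 375 and 388 in the ERT2 arrays and 262, 254 and 271 in the Cre-ERT2 arrays, and fell by 0.60 (SE 0.067, limma adjusted p = 0.00336). Mef2c, a MADS-box factor active in pre-B cells, read 2577, 2843 and 2587 against 3410, 3616 and 3524, and rose by 0.40 (SE 0.059, 0.0107). In both genes the groups lay far apart relative to their spread.

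Pou2f2, which encodes Oct-2, the octamer-binding partner of OCA-B, read 588, 579 and 556 in the ERT2 arrays and 719, 751 and 726 in the Cre-ERT2 arrays. It rose by 0.35 (SE 0.048, limma adjusted p = 0.0082), whereas the difference of its coactivator Pou2af1 was -0.10. Lef1, a nuclear partner of beta-catenin, Foxo1, the activator of the Rag genes, and Erg, an Ets factor, fell, with differences of -0.49, -0.51 and -0.33. Runx1, which acts with Ebf1 early in the lineage, rose by 0.25 and Ikzf4, the Ikaros relative Eos, rose by 0.21 (adjusted p = 0.043).

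4 of the 8 calls were lost with 1 array left out. Ikzf4 lost its call without any 1 array (adjusted p from 0.0797 to 0.177), and also with the intensity trend (0.0700), after median centring (0.0568) and after cyclic loess (0.0533). Runx1 kept its call only where the array left out was replicate 2 of ERT2 (otherwise 0.0743 to 0.139). Mef2c lost its call once replicate 1 of ERT2, or either replicate 2 or 3 of Cre-ERT2, was omitted (0.0534 to 0.0589). Erg lost its call once replicate 3 of Cre-ERT2 was omitted (0.0516). The E protein Tcf3, the Ets factor Spi1 (PU.1) and the oncogene Myb, all needed for B-cell development, did not pass, with differences of -0.14, -0.02 and -0.09.

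**Figure D4:**
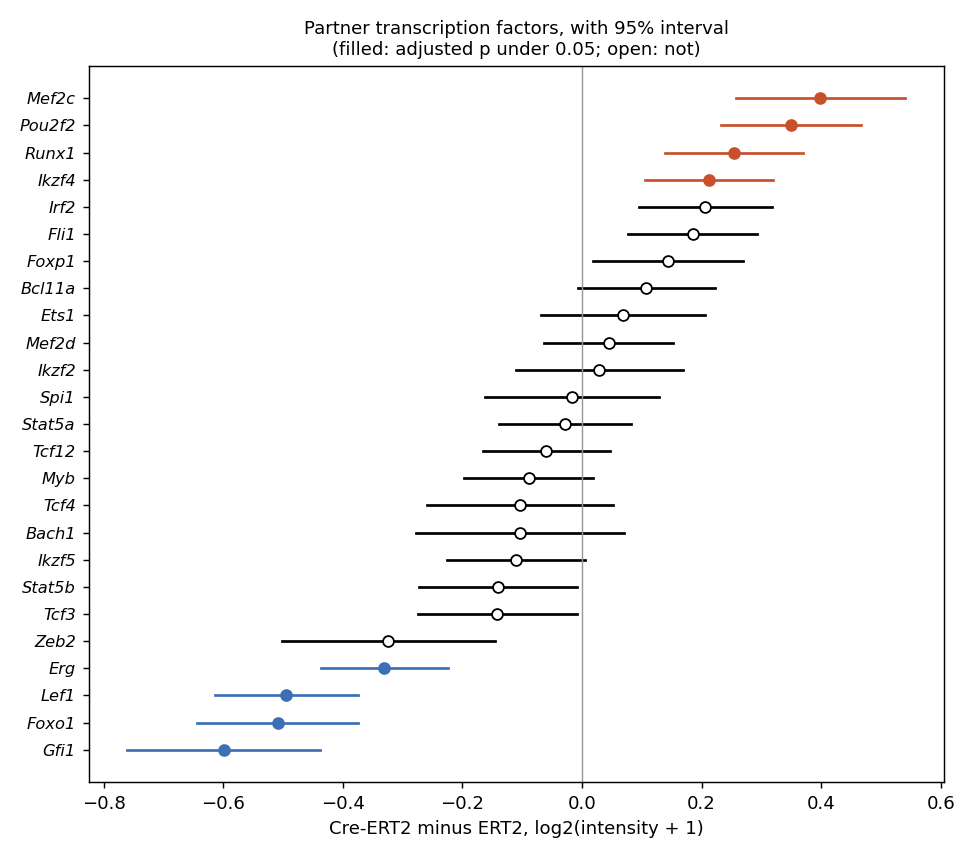
Log2 difference of the 25 partner transcription factors, Cre-ERT2 minus ERT2, with 95% intervals; filled circles passed at an adjusted p under 0.05 and open ones did not. Gfi1, Foxo1, Lef1 and Erg are the filled circles below 0 and Mef2c, Pou2f2, Runx1 and Ikzf4 those above.

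Of 11 measured genes that Ebf1 and Pax5 are known to activate, 0 rose and 2, Siglecg and Cd72, fell (18.2% called, background 8.11%, of which 3.73% lower, median -0.01). Siglecg, an inhibitory lectin of B cells, read 2015, 2204 and 1894 in the ERT2 arrays and 423, 358 and 458 in the Cre-ERT2 arrays, and fell by 2.31 (SE 0.105, limma adjusted p = 9.67e-05). Cd72, an inhibitory co-receptor, read 4703, 5054 and 4663 against 2399, 2557 and 2506, and fell by 0.95 (SE 0.055, 0.000219). In neither gene did the groups come near each other.

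The antigen receptor chains Cd79a and Cd79b had differences of -0.07 (SE 0.051) and 0.03 (SE 0.047). The surrogate light chain genes Igll1 and Vpreb1 had 0.01 and 0.04, and the adaptor Blnk had -0.09, all without a call. Cr2, also without a call, was dim (group means 163 in ERT2 and 182 in Cre-ERT2, below array medians of 273 to 279), where background can hide a change.

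Of 9 genes that Pax5 is known to repress, 5 rose and 1 fell (66.7% called, background 8.11%, median 0.34). The list was chosen with earlier results of these data known, so its share is not a test of genes under Pax5. Jchain, which links IgM polymers, read 409, 427 and 348 in the ERT2 arrays and 1676, 1821 and 1737 in the Cre-ERT2 arrays, and rose by 2.15 (SE 0.086, limma adjusted p = 6.21e-05). Grap2, an adaptor of T-cell receptor signalling, read 2314, 2493 and 2206 against 3845, 3924 and 3877, and rose by 0.73 (SE 0.059, 0.000786). Both were higher in all 3 Cre-ERT2 arrays than in any ERT2 array.

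Notch1, the receptor that directs progenitors to the T lineage, rose by 0.47 (SE 0.059), Xbp1, a secretory-pathway factor, by 0.38 (SE 0.051) and Flt3, a progenitor cytokine receptor, by 0.34 (SE 0.070). Emb, the membrane glycoprotein embigin, fell by 0.89 (SE 0.064). Cd28, Ccl3 and Csf1r did not pass, with differences of 0.13, 0.07 and -0.02. Cd28 (group means 106 and 116) and Csf1r (146 and 145) were dim, below array medians of 273 to 279, where background can hide a change. Flt3 lost its call without any 1 array (adjusted p from 0.0516 to 0.152), after median centring (0.0528) and after cyclic loess (0.0513). The part of Pax5 in these changes was not tested.

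Of 9 pre-B genes under Ikaros and Aiolos 2 rose and 1 fell (33.3%, background 8.11%; median 0.04). Dntt, the terminal transferase, rose by 1.33 (SE 0.091) and Vpreb2, a surrogate light chain gene, by 0.49 (SE 0.052), while Il7r, the interleukin 7 receptor, fell by 0.93 (SE 0.045). Myc, Ccnd3 and Ccnd2, growth genes that Ikaros is known to restrain or adjust, had differences of -0.08, -0.08 and 0.18 without a call. Ccnd2 came nearest to one (95% interval 0.08 to 0.29, limma adjusted p = 0.0666), and its groups did not overlap. For Myc and Ccnd3 the limma adjusted p was 0.428 and 0.518. Ccnd2 is also in the list of genes held down by Bcl6 or Bach2.

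Among genes held down by Bcl6 or Bach2, 1 of 13 rose and 1 fell (15.4%, background 8.11%; median 0.03). Cd69, an activation antigen, read 2613, 2721 and 2585 in the ERT2 arrays and 3220, 3380 and 3451 in the Cre-ERT2 arrays, and rose by 0.34 (SE 0.051, limma adjusted p = 0.0112). Bcl2l1, which encodes BCL-XL, fell by 0.79 (SE 0.055). Prdm1, the plasma-cell regulator both repressors silence, did not pass, with a difference of -0.15 (SE 0.060, limma adjusted p = 0.275), nor did Cdkn2a, with -0.06. Prdm1 was dim, with group means of 117 in ERT2 and 105 in Cre-ERT2 below array medians of 273 to 279, where background can hide a change. Cd69 no longer passed once replicate 1 of ERT2, or either replicate 2 or 3 of Cre-ERT2, was omitted (0.0574 to 0.0678).

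Of 9 later B-cell genes under Irf4, Irf8, Spi-B or OCA-B, 1 rose and 0 fell (11.1% called, background 8.11%, of which 4.38% higher, median 0.08). Ccr7, a homing receptor, rose by 0.34 (SE 0.059, limma adjusted p = 0.0215), and no longer passed once replicate 2 of ERT2 or any single Cre-ERT2 array was omitted (0.0502 to 0.0903). Cxcr4, the receptor that holds B-cell precursors in the marrow, had 0.11 and Cd40, a co-stimulatory receptor, 0.08, without a call. Ms4a1 (group means 86 in ERT2 and 96 in Cre-ERT2), Fcer2a (104 and 101) and Ciita (180 and 184) also had no call. They were dim, below array medians of 273 to 279, where background can hide a change.

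**Figure D5:**
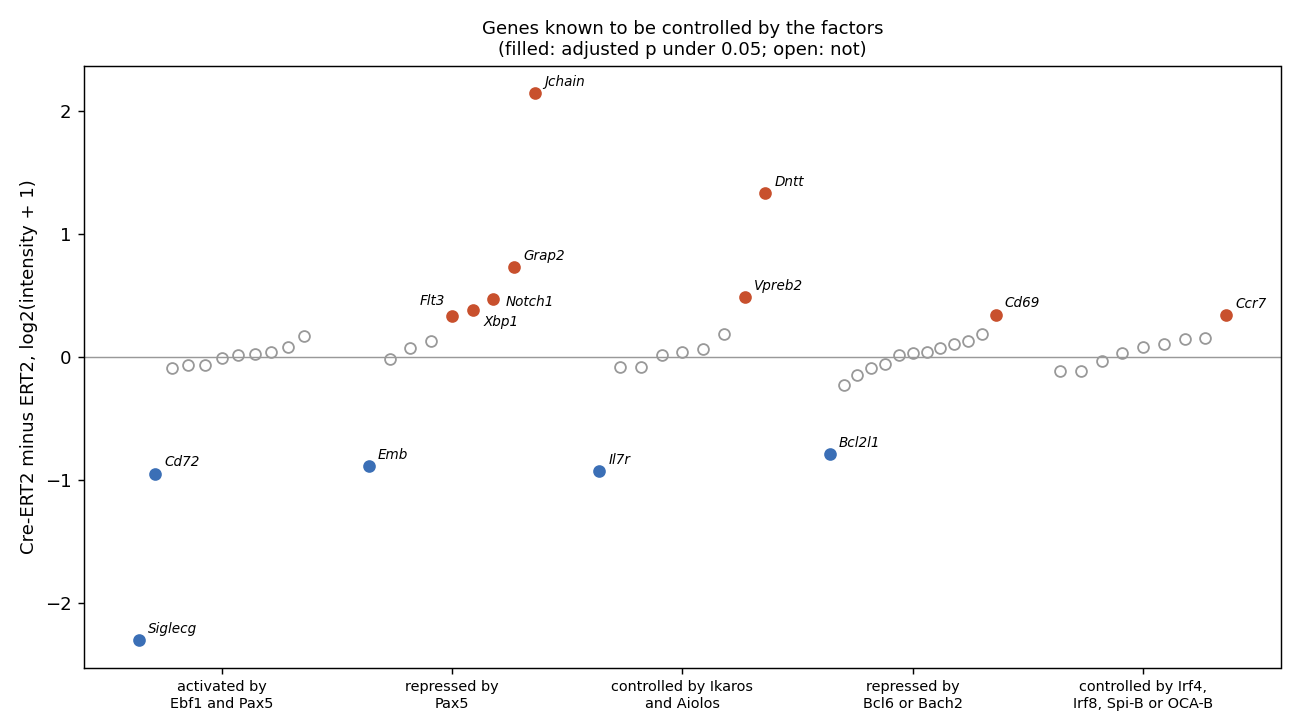
Log2 difference, Cre-ERT2 minus ERT2, of genes known to be controlled by the factors, grouped by factor along the x axis; filled circles passed at an adjusted p under 0.05 and are named. Siglecg at -2.31 and Jchain at 2.15 are the extremes, while most genes lie near 0.

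Markers of other cells were read beside these results, since bulk RNA cannot separate fewer cells of a type from less RNA per cell. Of 7 pre-B markers 0 passed, and their summed intensity was 68574 to 69617 in ERT2 and 67140.3 to 68434 in Cre-ERT2. Of 6 myeloid markers, relevant to Irf8, 1 rose (Lyz2, lysozyme, by 1.40) and 1 fell (Itgam, an integrin chain, by 0.49), with sums of 1125 to 1192 in ERT2 and 1586 to 1777 in Cre-ERT2. Of 5 plasma-cell markers, relevant to Irf4, 2 rose (Jchain and Xbp1) and 1 fell (Sdc1, by 0.62), with sums of 9529 to 10136 and 12975 to 13507. Of 6 T-cell markers 1 rose (Lat, an adaptor, by 0.47), with sums of 1462 to 1544 and 1681 to 1753. These higher sums came mainly from the called genes. Shares called were 33.3% of the myeloid, 60% of the plasma-cell and 16.7% of the T-cell markers, against 8.11% of all genes. Jchain and Xbp1 were already counted above among the genes repressed by Pax5, so they are not separate findings. Group means in ERT2 and Cre-ERT2 were 351 and 932 for Lyz2, 8161 and 10623 for Xbp1, 395 and 1745 for Jchain and 643 and 889 for Lat. Of the other T-cell markers, Cd3g, Cd3d, Cd8a and Cd3e had differences of -0.21, -0.11, -0.13 and -0.004, and Cd4 had 0.08, all without a call. No marker read 0, as arrays carry background, and the part of these markers in the results was not tested. None of 4 NK-cell, 3 erythroid and 5 stromal markers passed (limma adjusted p of 0.224 or more).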

How the data were processed

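Total RNA of 6 samples (3 ERT2, 3 Cre-ERT2) was hybridised to 1 Affymetrix array each. The authors' deposited values are RMA intensities, per the submitters' processing notes, on a linear scale (6.27 to 26714); the version of RMA and its annotation were not stated there. RMA equalises array distributions, so a shift of all genes together would be hidden. Values were analysed as log2(intensity + 1), which slightly understates changes of dim probe sets.

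The 35556 probe sets were fitted with limma 3.58.1 in R 4.3.3 (lmFit, eBayes, no covariates), and p-values were adjusted by Benjamini and Hochberg's method across the whole table, with calls at an adjusted p under 0.05. SEs and 95% intervals are limma's moderated ones. Of the probe sets 21789 name 1 gene; a gene took its brightest, giving 19938 genes, and gene counts use these. The fit was tested on simulated data. Members, gene lists and tests were chosen with earlier results of these data known; no list was tested as a set. The 10 members, Sox4, up to 6 called genes of each list and the 3 genes most like the most changed member were to be named; Runx1, Ikzf4, uncalled list genes and marker genes were picked for naming with their values in view. Listed genes that were not matched were not analysed here. Brightness differs between probe sets, so levels of different genes were not compared. Alternatives were 11 other settings and each of the 6 arrays left out.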

Additional observations from a re-analysis of the deposited data

How the results depend on the processing

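Directions of 9 members held under all 17 alternatives; Bcl6, at -0.01, turned to 0.0056 with array weights and ranged from -0.043 to 0.037 with single arrays left out (above 0 without ERT2 replicate 2, and 0.00042 without Cre-ERT2 replicate 1). Counts of called members (0 higher, 0 lower as reported) became 2 and 2 with an intensity trend or array weights. They became 2 and 1 over probe sets above the median brightness, over 1-gene probe sets or with a gene's probe sets averaged. A pseudocount of 16 gave 1 and 1, a further quantile normalization 0 and 1 and cyclic loess 0 and 2. All genes called rose too, from 1617 as reported to 1914 with the trend and 2749 with array weights. They numbered 1852 over the brighter, 2402 over the 1-gene and 2452 over the averaged probe sets. The pseudocount of 16 gave 1741, quantile normalization 1967 and cyclic loess 1974. Pax5 passed at -0.22 with the trend, the brighter probe sets, 1-gene probe sets, averaged probe sets and the pseudocount of 16, at -0.24 after quantile normalization (-0.236) or cyclic loess (-0.238), and at -0.26 with array weights. Irf4 passed at 0.22 with the trend, the brighter probe sets, 1-gene and averaged probe sets, at 0.21 with the pseudocount of 16 and at 0.17 with array weights. Irf8 passed at 0.19 with the trend, the brighter probe sets, 1-gene and averaged probe sets and array weights. Ikzf1 passed at -0.17 with the trend, -0.19 after cyclic loess and -0.18 with array weights. Fewer probe sets enter the brighter, 1-gene and averaged fits, and the moderated SEs change with them. For Pax5 the SE was 0.044 over the brighter and 0.051 over the 1-gene probe sets, against 0.049 as reported. Why calls changed under any of these settings was not tested. Robust fitting, median centring and the replicate block called 0 members.

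With single arrays left out, members called stayed at 0; partner factors higher were 1 to 3 against 4, genes under Bcl6 or Bach2 higher 0 to 1 and later B-cell genes higher 0 to 1. Genes under Bcl6 or Bach2 higher were 2 with the trend, the brighter probe sets, 1-gene or averaged probe sets, array weights or the pseudocount of 16, and lower 2 with 1-gene or averaged probe sets or array weights. Genes under Ikaros and Aiolos higher were 3 against 2 in the fits with the trend, the brighter probe sets, 1-gene probe sets and array weights. Same-numbered arrays deviated with correlations of 0.20, 0.34 and -0.05, against -0.43 to 0.33 for arrays of unlike number. Deviations from a mean of 3 arrays are tied to one another, so these values cannot decide whether the numbers pair the samples. The replicate block gave 2 higher partner factors against 4, as Ikzf4 (limma adjusted p = 0.103) and Runx1 (0.0649) lost their calls. It called 1303 genes against 1617. Called genes numbered 2749 with array weights, 2452 with averaged probe sets, 1019 without ERT2 replicate 1, and 1052, 985 and 950.0 with replicate 1, 2 or 3 of Cre-ERT2 omitted. Groups of 3 arrays limit what can be called to changes of about the sizes given above.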
